A study of Homo sapiens with 40 samples.

Results

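The genes of G2 phase and mitosis were examined as a group of 40 named genes in single T47D cells. Each symbol was matched to its Ensembl identifier, and all 40 were found among the 60279 genes listed. T47D is an established human breast cancer cell line of luminal type. The cells came from 1 culture at passage 10 with a labelled doubling time of 32 h, and were sorted singly as EpCAM+/CD49f+, with no treatment and no other genotype. Full-length cDNA was made with 3 protocols: G&T (Genome & Transcriptome sequencing), Takara (SMART-seq HT kit) and NEB (NEBNext Single Cell/Low Input kit). Of 40 deposited cells, 33 were kept, 11 per protocol, after leaving out G&T C2 and F1, Takara C2 and F1, and NEB B2, F1 and F2, where a letter and number give the well.

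Effects of the protocol, its plate and its run cannot be told apart here. With 1 culture, each protocol counts as 1 sample, so no test was made and all medians, ranges and correlations describe these cells. Library size (reads assigned to genes or to ERCC spike-in RNA) ranged from 672328 to 1297218 over the kept cells. CPM (counts per 1e+06) were taken over the reads on genes. Reads carry no molecular identifiers, so intervals and limits cover counting error only. Of 10 luminal markers, 9 had reads in every kept G&T and Takara cell and 7 in every kept NEB cell, and their summed level was 1993 CPM or more in each. In each protocol 1 of the 10 luminal markers had no read in any kept cell. The 6 immune markers summed to at most 54.7 CPM in any cell, the 4 endothelial markers to at most 25.5 CPM, and the 5 fibroblast markers to at most 50.04 CPM. Of the fibroblast markers, 1 had reads in every kept G&T cell.

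Cells enter mitosis when cyclin-dependent kinase 1, bound to A- and B-type cyclins, is switched on by CDC25 phosphatases with help from Polo-like and Aurora kinases. The spindle checkpoint holds sister chromatids together until kinetochores are attached. The anaphase-promoting complex then marks securin and the cyclins for destruction. Transcripts of these proteins are known to build up from late S phase, to peak in G2 and mitosis and to fall after division, so that in a dividing culture some cells hold many of them and others few. CDK1, TOP2A and CCNA2 are known to rise earlier in the cycle than CCNB1, CCNB2, CDC20 and PTTG1.

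The 40 genes were sorted by role. Mitotic entry and its kinases held 11 genes (CDK1, CCNA2, CCNB1, CCNB2, CDC25B, CDC25C, CKS1B, CKS2, PLK1, AURKA and TPX2). The spindle checkpoint and the chromosomal passenger complex held 7 (AURKB, BIRC5, BUB1, BUB1B, BUB3, MAD2L1 and TTK), and kinetochore and centromere 5 (CENPA, CENPE, CENPF, NDC80 and NUF2). Anaphase and proteolysis held 3 (CDC20, UBE2C and PTTG1), motors and spindle proteins 9 (KIF11, KIF23, KIF2C, KIF20A, KIF20B, NUSAP1, HMMR, DLGAP5 and CKAP2), cytokinesis 2 (ECT2 and ANLN), and chromatin 3 (TOP2A, HMGB2 and MKI67).

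The summed level of the 40 genes differed between cells of the same protocol by more than 10-fold. In G&T cells it ran from 1641 CPM in D2 through a median of 6581 CPM to 22285 CPM in A2, a 13.6-fold range. In Takara cells it ran from 567 CPM in E2 through 8464 CPM to 28681 CPM in A2, a 50.6-fold range. In NEB cells it ran from 737 CPM in B1 through 6610 CPM to 46711 CPM in E1, a 63.4-fold range. The medians of the 3 protocols differed by less than the SD over the cells of any of them (7725 CPM in G&T cells, 10128 CPM in Takara cells and 15618 CPM in NEB cells).

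**Figure D1:**
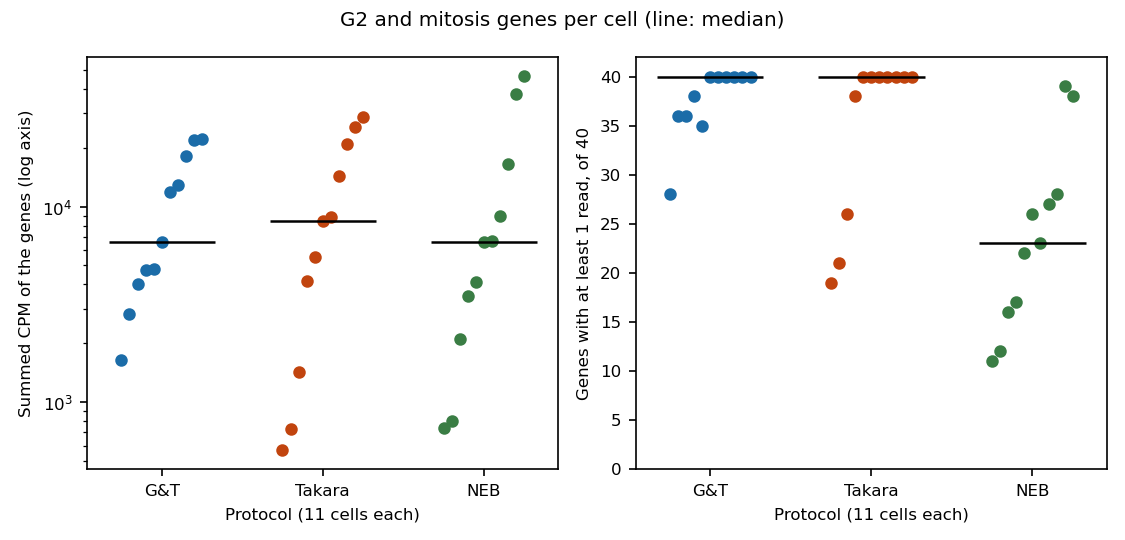
Left, summed CPM of the 40 genes in each kept cell on a log axis. Right, number of the 40 genes with at least 1 read in each cell. Points are cells, 11 per protocol, ordered by summed CPM within a protocol, and lines are medians. The lowest cells lie at 1641 CPM in G&T cells, 567 CPM in Takara cells and 737 CPM in NEB cells, and no NEB cell has reads on all 40 genes.

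Detection followed the protocol as well as the cell. All 40 genes had reads in 6 G&T cells, in 7 Takara cells and in 0 NEB cells, where the cell with most, D1, had reads on 39. The lowest cells had reads on 28 genes in G&T (D2), 19 in Takara (E2) and 11 in NEB (B1). Over the 40 genes the median number of cells with reads was 11 of 11 in G&T cells, 10 in Takara cells and 6 in NEB cells. After thinning every cell to 624772 reads on genes it was 10.99, 9.996 and 5.91. Of all values of a member in a cell, 93.9% were above 0 in G&T cells, 87.3% in Takara cells and 58.9% in NEB cells, beside 89.4%, 93.4% and 71.3% for all genes that passed a level filter (mean of at least 5 CPM and reads in at least 4 kept cells). Over the 32 members that passed that filter in NEB the share was 67.9%.

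Only 3 members had reads in all 33 kept cells. They were BUB3, a spindle checkpoint protein, CENPF, a large kinetochore protein, and CKS1B, a small subunit of cyclin-dependent kinases. In NEB, 18 of the 40 genes had reads in fewer than 6 cells, against 0 in G&T and 0 in Takara. The sparsest in NEB were PLK1 in 1 cell, CENPA and BUB1B in 2, and AURKB, KIF23, KIF2C, KIF20A and CDC25C in 3. These 8 did not pass the level filter in NEB, and all 40 passed it in G&T and in Takara. Genes of any kind were also found least often with NEB, so low detection there was not limited to the members. The median kept NEB cell had reads on 5161 genes, beside 11253 for G&T and 10983 for Takara. The level filter kept 5821 NEB genes, beside 10011 for G&T and 9558 for Takara. All 3 protocols together kept 5447 genes and 32 of the 40 members, so members were lost in NEB no more often than other genes. The counts above of members by cells with reads have no share of all genes beside them. A count of 0 in 1 NEB cell allowed up to 3.11 to 4.80 CPM, taking 3 reads as the limit.

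**Figure D2:**
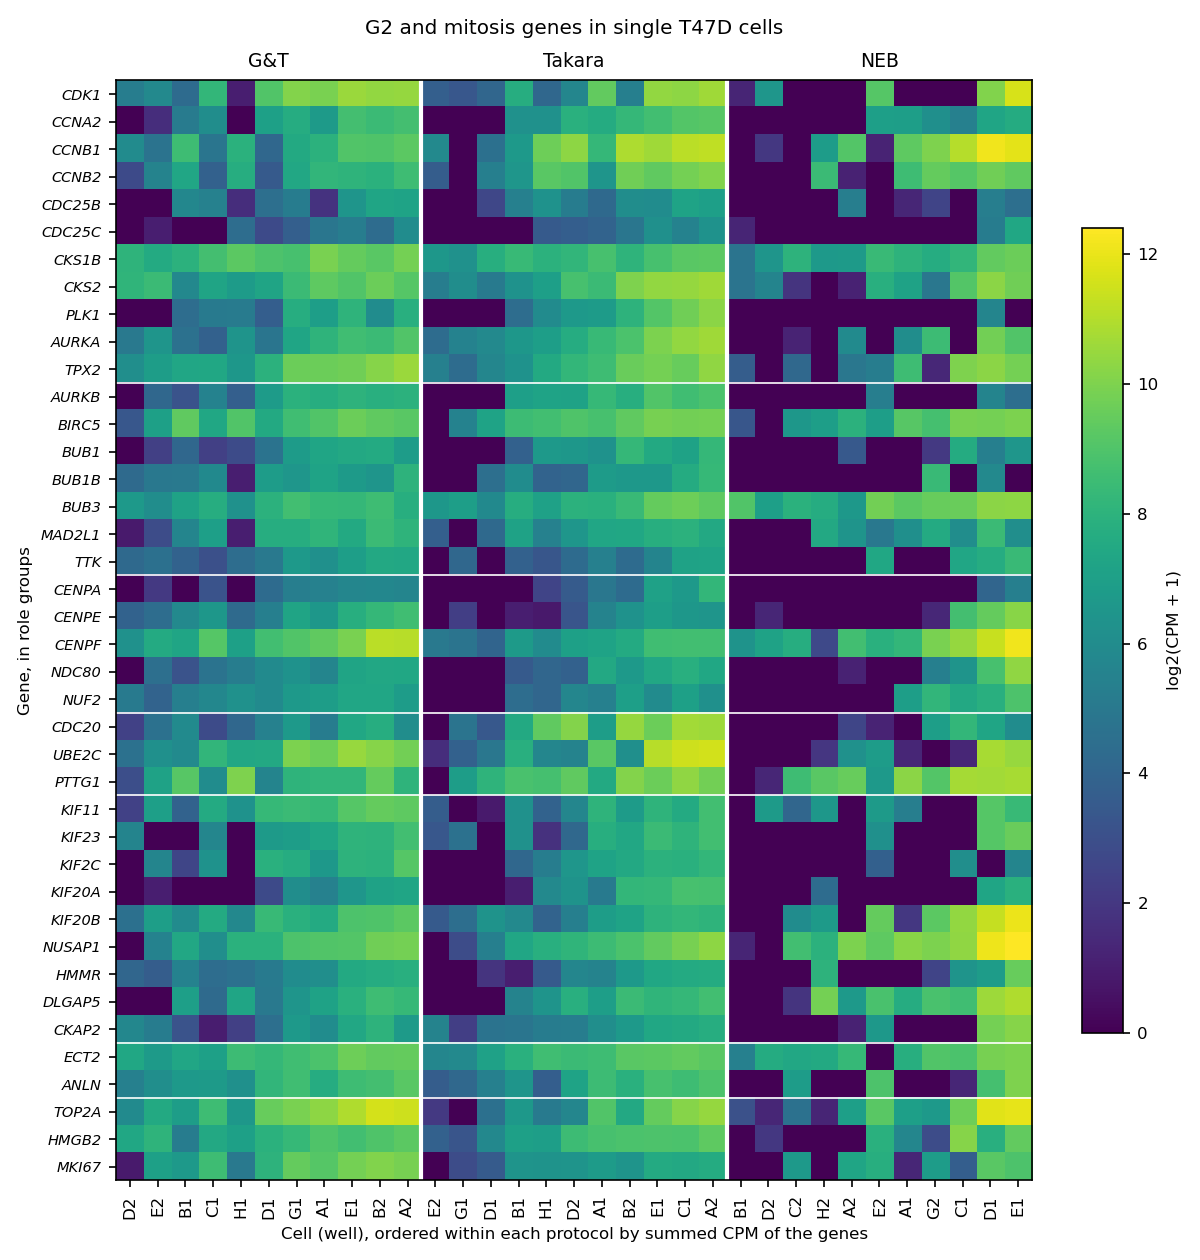
Level of each of the 40 genes (rows, grouped by role with white lines between groups) in each kept cell (columns, named by well and ordered by summed CPM within a protocol), as log2(CPM + 1). Darkest cells are 0 reads. Because columns are ordered by the sum of these same genes, brightening from left to right is in part set by that order. Values of 0 are most frequent in NEB, where 58.9% of values were above 0.

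In each role group the member with the highest pooled CPM per kb of exon, averaged over the 3 protocols, was described. It was not the highest in every protocol. For mitotic entry this was CKS2 (ENSG00000123975, chromosome 9, 89311195 to 89316703), which binds cyclin-dependent kinases, at 550.2 CPM per kb in G&T cells, 984 in Takara cells and 502 in NEB cells. Its level ran from 53.7 CPM through a median of 355 CPM to 790.1 CPM in G&T, and from 33.7 CPM through 353 CPM to 1601 CPM in Takara. In NEB it ran from 0 CPM in H2 through 47.1 CPM to 1220 CPM in D1. The ranges of the 3 protocols overlapped. In NEB, CCNB1 was higher at 520.3 CPM per kb.

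BIRC5 (ENSG00000089685, chromosome 17, 78214186 to 78225636) encodes survivin of the chromosomal passenger complex and led its group at 105 CPM per kb in G&T cells, 127 in Takara cells and 108 in NEB cells. Its lowest, median and highest levels were 9.43, 525 and 791 CPM in G&T, 0, 442 and 938 CPM in Takara, and 0, 251 and 987 CPM in NEB. CENPF (ENSG00000117724, chromosome 1, 214603185 to 214664574) had the highest average of the kinetochore group, though in Takara its 14.2 CPM per kb lay below CENPA (28.6), NDC80 (23.2) and NUF2 (14.4). It ran from 75.4 CPM in D2 through 521 CPM to 2261 CPM in B2 in G&T, and in Takara only from 15.1 CPM through 131 CPM to 405 CPM. In NEB its level ran from 5.68 CPM in H2 through 300.1 CPM to 4529 CPM in E1. UBE2C (ENSG00000175063, chromosome 20, 45812576 to 45816957), the ubiquitin-conjugating enzyme of the anaphase-promoting complex, ran from 2.10 CPM in E2 through 71.5 CPM to 2979 CPM in A2 among Takara cells. Its Takara median was far below its pooled level of 860.5 CPM, since E1, C1 and A2 held most of its reads. In NEB its 280.4 CPM per kb lay below the 411 of PTTG1.

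NUSAP1 (ENSG00000137804, chromosome 15, 41320794 to 41381050), which binds spindle microtubules, led the spindle group at 91.3 CPM per kb in G&T cells, 114 in Takara cells and 420.1 in NEB cells. Its lowest, median and highest levels were 0, 244 and 905 CPM in G&T, 0, 276 and 1247 CPM in Takara, and 0, 990.3 and 5433 CPM in NEB. In GENCODE release 44, 86.8% of its exon bases are shared with other annotated genes, so its counts depend on the release used for counting, which is not given in the sources used here. ECT2 (ENSG00000114346, chromosome 3, 172750682 to 172821474), the exchange factor that starts the cleavage furrow, was among the steadiest members. Its lowest, median and highest levels were 108, 365 and 819 CPM in G&T, 50.4, 379 and 694 CPM in Takara, and 0, 222 and 991 CPM in NEB. TOP2A (ENSG00000131747, chromosome 17, 40388525 to 40417896), the topoisomerase that untangles sister chromatids, ran from 60.9 CPM through 741 CPM to 3075 CPM in G&T. In Takara TOP2A ran from 0 CPM through 98.03 CPM to 1383 CPM, and in NEB from 1.42 CPM through 126 CPM to 3976 CPM. HMGB2, a chromatin protein that bends DNA, was higher per kb in Takara (119.6 against 60.9 CPM per kb).

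Shares of each role came from CPM added over the kept cells of a protocol, so the highest cells weighed most. In NEB these were D1 (37777 CPM) and E1 (46711 CPM), beside a median of 6610 CPM. The spread of the shares over cells was not computed. By this measure the shares differed between protocols. Mitotic entry took 29.5% in G&T cells, 39.7% in Takara cells and 25.3% in NEB cells. Spindle proteins took 15.3%, 12.6% and 28.1%, anaphase and proteolysis 9.43%, 19.0% and 9.45%, and chromatin genes 18.0%, 7.03% and 10.0%. NUSAP1 alone took 11.6% in NEB. CKS1B, CKS2, HMGB2 and PTTG1 have near-identical copies elsewhere in the genome, and reads that fit more than 1 place could be missing from their counts.

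Spread between cells was measured as the coefficient of variation (CV), the SD over cells divided by the mean. The median CV of the members was 0.929 in G&T cells, 0.991 in Takara cells and 1.49 in NEB cells, beside 0.780, 0.562 and 1.16 for all genes that passed the filter. Because the CV of a gene falls with its level, its square was set against a smooth trend on the mean over all genes, and a gene at 2 times the trend or more was counted. In G&T 34 of 40 members were counted, beside 11.1% of 10011 genes. In Takara 40 of 40 were counted, beside 13.7% of 9558 genes. In NEB 27 of the 32 members that passed were counted, beside 10.2% of 5821 genes. The median ratio of squared CV to the trend was 3.30, 9.31 and 5.10 for the members and close to 1 for all genes (0.999, 1.02 and 1.01).

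The members with the lowest CV were CKS1B in G&T (0.481) and Takara (0.552) and BUB3 in NEB (0.678). CKS1B ran from 193.5 CPM through 484 CPM to 960.3 CPM in G&T, from 77.5 CPM through 291 CPM to 617 CPM in Takara, and from 26.5 CPM through 255 CPM to 787 CPM in NEB. BUB3 ran from 65.9 CPM to 395 CPM in G&T, from 58.6 CPM to 808 CPM in Takara and from 95.8 CPM to 1256 CPM in NEB. The highest CV was that of KIF20A, a kinesin of the spindle midzone, in G&T (1.30), with reads in 7 cells and up to 156 CPM. In Takara it was CENPA, the centromeric histone, at 1.70, with reads in 7 cells and up to 297 CPM. In NEB it was NDC80, an outer kinetochore protein, at 2.34 among members that passed the filter, with reads in 5 cells and 1296 CPM in E1.

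Covariation was measured as the Spearman rho across the 11 kept cells between a gene and a module score, the mean log2(CPM + 1) of the members that passed the filter, leaving out the gene itself where it was a member. A rho of 0.6 or more was counted. In G&T 39 of 40 members were counted, beside 13.1% of 10011 genes, and their median rho was 0.868 beside 0.182 for all genes. In Takara 40 of 40 were counted, beside 6.86% of 9558 genes, with a median of 0.932 beside 0.00909. In NEB 28 of 32 were counted, beside 3.69% of 5821 genes, with a median of 0.809 beside -0.0183. Of the 32 members that passed in all 3 protocols, 27 were counted in each of them, beside 1.29% of 5447 genes. Cells of 1 protocol share a plate, a run and a culture.

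**Figure D3:**
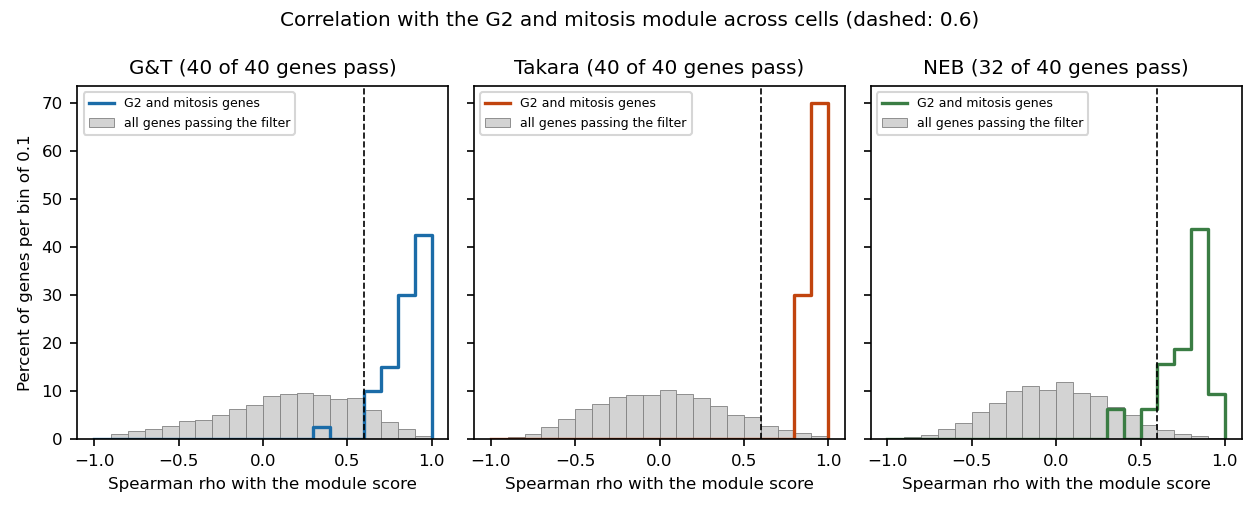
Distribution of Spearman rho with the module score across 11 cells in each protocol, as percent of genes in bins of 0.1. Grey bars are all genes that passed the level filter, the coloured line is the 40 members in G&T and Takara and the 32 that passed in NEB, and the dashed line is rho of 0.6. The members sit at the right, with medians of 0.868, 0.932 and 0.809.

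Pairs of members gave the same picture without a score. The median rho over all pairs of members was 0.773 in G&T cells, 0.890 in Takara cells and 0.630 in NEB cells, beside 0.0640 in G&T and 0.00900 in NEB over all pairs of genes that passed. A rho of 0.6 or more was found in 82.4%, 99.9% and 54.8% of the pairs of members, and in 5.37%, 3.16% and 3.14% of all pairs. TOP2A and MKI67, the proliferation antigen Ki-67, had rho of 0.982 in G&T cells, 0.973 in Takara cells and 0.807 in NEB cells. CENPE and CENPF had 0.936, 0.902 and 0.778, and the cyclins CCNB1 and CCNB2 had 0.836, 0.973 and 0.942. NDC80 and NUF2, partners in a single kinetochore complex, had 0.864, 0.833 and 0.835. In NEB, 4 cells had reads on both of these and 5 on neither. AURKA and its activator TPX2 had 0.727, 0.964 and 0.478. In NEB, 6 cells had reads on both AURKA and TPX2, 3 on TPX2 alone and 2 on neither. Some other couples were weaker in G&T or NEB. CKS1B and CKS2 had 0.518, 0.855 and 0.755, CCNA2 and CCNB1 0.565, 0.973 and 0.679, and MAD2L1 and BUB3 0.818, 0.936 and 0.229. AURKB and BIRC5 had 0.482 in G&T and 0.945 in Takara.

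Some other measures of a cell moved with the score. In G&T its rho with library size was -0.791, and with library size held constant by partial correlation 28 of 40 members were counted, beside 10.2% of all genes, and the median was 0.738. With library size, rho was 0.1 in Takara and 0.227 in NEB. With reads on genes per ERCC read, a measure of the RNA in a cell, rho came to 0.736 in G&T cells, 0.673 in Takara cells and 0.0636 in NEB cells, and with genes detected 0.518, 0.345 and -0.0273. When reads were scaled to ERCC reads in place of reads on genes, 39, 40 and 28 members were counted, beside a raised share of all genes (23.5%, 21.9% and 5.01%). The summed level of the 10 luminal markers had rho of -0.191, -0.791 and -0.5 with the score. In Takara that sum was 25728 CPM in E2, 26998 CPM in G1 and 10403 CPM in A2.

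Among members that passed in all 3 protocols, those whose lowest rho was highest were NUSAP1 (0.936 or more in each), CENPF (0.909), KIF20B and TOP2A (0.882 each) and CCNA2 (0.868). KIF20B (ENSG00000138182, chromosome 10, 89701590 to 89774939), a kinesin needed for cytokinesis, ran from 23.1 CPM through 192 CPM to 619 CPM in G&T. In Takara KIF20B ran from 10.497 CPM through 80.8 CPM to 294 CPM, and in NEB from 0 CPM through 106 CPM to 4245 CPM. CCNA2 (ENSG00000145386, chromosome 4, 121816444 to 121823883), cyclin A2, had reads in 9 G&T, 8 Takara and 6 NEB cells. Its lowest, median and highest levels were 0, 107 and 414 CPM in G&T, 0, 200.2 and 586 CPM in Takara, and 0, 41.3 and 200.2 CPM in NEB.

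The members whose lowest rho was lowest differed between protocols. PTTG1 (ENSG00000164611, chromosome 5, 160421855 to 160428739), securin, had rho of 0.327 in G&T cells, 0.855 in Takara cells and 0.818 in NEB cells. In G&T it ran from 6.86 CPM in D2 through 270.2 CPM to 1014 CPM in H1, a cell whose summed level of the members (4782 CPM) lay below the median. Without H1 the rho of PTTG1 was 0.564, and without D2 it was 0.103. CDK1 (ENSG00000170312, chromosome 10, 60778331 to 60794852), KIF11 and MAD2L1 were lowest in NEB, at 0.332, 0.368 and 0.578, and CDC25B at 0.545. In G&T and Takara CDK1 had 0.9 and 0.891. KIF11, the motor that separates spindle poles, had 0.945 and 0.9, MAD2L1, the checkpoint protein MAD2, had 0.864 and 0.936, and CDC25B, which activates CDK1, had 0.815 and 0.834. Without NEB D1, and likewise without NEB E1, rho in NEB was 0.00683 for CDK1 and 0.125 for KIF11. The NEB levels of these genes were low in most cells. NUF2 and NDC80, each with a median of 0 CPM in NEB, had rho of 0.853 and 0.848. Whether level has a part in rho in NEB was not tested. KIF11 ran from 0 CPM through 39.01 CPM to 565 CPM there, MAD2L1 from 0 CPM through 68.6 CPM to 349 CPM, and CDC25B from 0 CPM through 0 CPM to 39.1 CPM. In G&T their medians were 315, 184 and 35.5 CPM, and in Takara 77.4, 141 and 41.3 CPM.

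CDK1 and CCNB1, the catalytic and the cyclin part of the same kinase, were compared cell by cell, a comparison chosen after their values were seen. The rho between them was 0.518 in G&T cells, 0.791 in Takara cells and 0.211 in NEB cells. In G&T CDK1 ran from 1.04 CPM in H1 through 526 CPM to 1499 CPM in E1, and CCNB1 from 16.5 CPM in D1 through 244 CPM to 626 CPM in A2. H1 held 1.04 CPM of CDK1 with 244 CPM of CCNB1, whereas D1 held 526 CPM of CDK1 with 16.5 CPM of CCNB1. Takara B2 held 40.6 CPM of CDK1 with 1883 CPM of CCNB1, and Takara A1 held 686 CPM with 304 CPM. No Takara cell paired a high CDK1 level with a CCNB1 level as low as that of G&T D1. NEB C1 held no read of CDK1 with 2120 CPM of CCNB1, and NEB E2 held 557 CPM with 1.32 CPM. In NEB 5 cells had reads on CCNB1 and none on CDK1, 4 had reads on both, 1 on CDK1 alone and 1 on neither. In the cells of highest sum both genes were high, as in Takara A2 (1595 and 2347 CPM) and NEB E1 (3246 and 3812 CPM).

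The summed level of 42 S-phase genes in these examples, which were picked after their values were seen, was 8044 CPM in G&T D1 and 960.5 CPM in G&T H1, 12299 CPM in Takara A1 and 2665 CPM in Takara B2, and 6720 CPM in NEB E2 and 1457 CPM in NEB C1. Other cells went the opposite way. Takara G1, with the highest ratio of CDK1 to CCNB1 in Takara from 9.50 CPM of CDK1 and none of CCNB1, held 1060 CPM of them, and NEB D2, with 91.1 and 3.04 CPM, held 1352 CPM. For all cells the log2 ratio of CDK1 to CCNB1 was taken with 1 CPM added to each. NEB C2, with no read on either gene, thus took a ratio of 0, and that of NEB B1 rests on 1 CDK1 read. Over all 11 cells of a protocol the rho of the S-phase sum with this ratio was 0.909 in G&T cells, 0.4 in Takara cells and 0.0364 in NEB cells. The relation was thus close in G&T only, and in NEB 6 cells had no CDK1 read. The ratio had rho of -0.5, 0.1 and 0.00909 with library size, and 0.491, -0.191 and 0.291 with genes detected. With the summed level of the G1 genes described below it was 0.664, 0.236 and 0.291. Along the same ratio PTTG1 had rho of -0.445, -0.4 and -0.627, CCNB2 had -0.0727, -0.455 and -0.679, and CDC20 had 0.209, -0.4 and -0.496. Many members had positive values in G&T, such as BUB3 (0.645) and UBE2C (0.509).

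**Figure D4:**
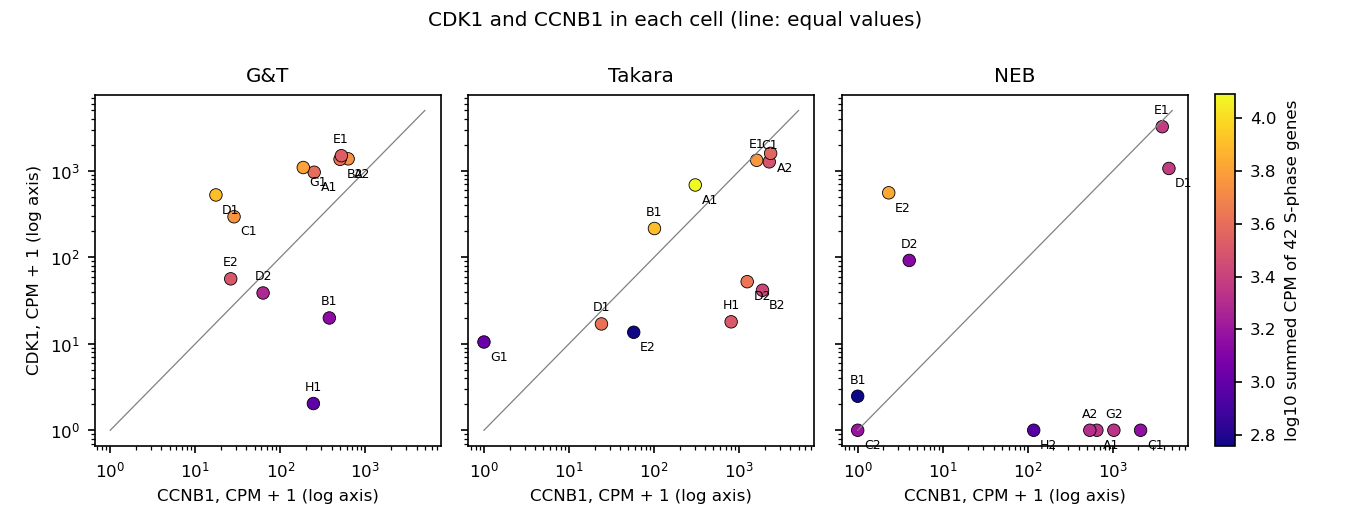
CDK1 against CCNB1 in each kept cell, as CPM + 1 on log axes, with wells as labels. The colour gives log10 of the summed CPM of 42 S-phase genes, and the grey line marks equal values. G&T D1, Takara A1 and NEB E2 lie above the line with summed levels of 8044, 12299 and 6720 CPM, and NEB cells with CCNB1 but no CDK1 lie along the bottom.

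Genes outside the 40 were set against the same score, beside the shares of all genes given above (13.1%, 6.86% and 3.69%). From a list of 52 other mitotic genes, 47 of the 51 that passed the filter in G&T had rho of 0.6 or more with the module score, 49 of 51 in Takara and 20 of 29 in NEB. Their medians were 0.852, 0.873 and 0.691. Of 42 S-phase genes, 12 of 41, 8 of 41 and 3 of 26 were counted, with medians of 0.418, 0.318 and 0.156. Of 22 G1 genes, 4 of 17, 1 of 16 and 0 of 10 were counted, and the Takara and NEB counts of this list were no higher than the share of all genes. Of the 9 luminal markers that passed, 0 were counted in any protocol. Non-members most like the module, by the lowest of 3 rho over 11 cells each, included IQGAP3 (0.896), PRR11 (0.881), SHCBP1 (0.849), MELK (0.832), SPC25 (0.81998), SPC24 (0.810) and ZWINT (0.8). SPC24 and SPC25 are partners of NDC80 and NUF2 in the kinetochore. IQGAP3 ran from 0 CPM through 58.2 CPM to 278 CPM in G&T, from 0 CPM through 10.4997 CPM to 24.3 CPM in Takara, and from 0 CPM through 19.2 CPM to 200.2 CPM in NEB.

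Promoters of cell cycle genes are known for CCAAT boxes, bound by the factor NF-Y, and for short elements with the letters TTTGAA or TTCGAA near the start of transcription. RefSeq promoters on GRCh38.p14 were at hand for 33 of the 40 genes, and the 250 bases before each start were searched on both strands. CCAAT was found in 24 of 33 members (72.7%) and in 33.04% of 27305 promoters, and 2 or more CCAAT in 17 members (51.5%) and in 10.03% of promoters. TTTGAA was found in 16 of 33 (48.5%) and in 13.6% of promoters, and TTCGAA in 0 of 33 and in 1.201%. The promoters below belong to the members of highest and lowest rho named above whose window lay outside annotated exons but for at most 10 bases. The 150 bases before the start are printed 5′ to 3′ on the strand of the gene, and capitals mark CCAAT or TTTGAA on either strand.

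CENPF, chr1:214603045-214603194, plus strand: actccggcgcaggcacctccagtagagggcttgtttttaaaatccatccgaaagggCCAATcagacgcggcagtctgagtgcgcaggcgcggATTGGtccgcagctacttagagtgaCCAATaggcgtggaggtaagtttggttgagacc
KIF20B, chr10:89701440-89701589, plus strand: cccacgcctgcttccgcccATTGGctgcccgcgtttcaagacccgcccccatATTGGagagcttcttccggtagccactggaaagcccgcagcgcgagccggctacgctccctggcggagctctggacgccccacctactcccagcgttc
TOP2A, chr17:40417897-40418046, minus strand: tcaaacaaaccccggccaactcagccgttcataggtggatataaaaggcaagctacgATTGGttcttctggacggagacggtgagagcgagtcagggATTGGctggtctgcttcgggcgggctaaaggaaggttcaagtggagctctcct
CCNA2, chr4:121823884-121824033, minus strand: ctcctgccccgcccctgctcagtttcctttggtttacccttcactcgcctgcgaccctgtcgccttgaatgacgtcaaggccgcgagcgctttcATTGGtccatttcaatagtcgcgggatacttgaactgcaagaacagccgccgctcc
PTTG1, chr5:160421705-160421854, plus strand: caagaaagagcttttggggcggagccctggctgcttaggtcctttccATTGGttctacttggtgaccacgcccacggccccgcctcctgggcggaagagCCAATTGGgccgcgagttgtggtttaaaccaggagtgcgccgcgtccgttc
CDK1, chr10:60778181-60778330, plus strand: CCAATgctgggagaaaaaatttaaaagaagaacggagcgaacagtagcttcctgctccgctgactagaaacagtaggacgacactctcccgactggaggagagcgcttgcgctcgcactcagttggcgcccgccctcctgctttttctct
KIF11, chr10:92592980-92593129, plus strand: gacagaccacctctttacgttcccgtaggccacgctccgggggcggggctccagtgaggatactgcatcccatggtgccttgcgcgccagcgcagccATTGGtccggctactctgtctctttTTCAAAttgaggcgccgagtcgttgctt

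The CENPF window, which reaches 10 bases into an annotated exon, held 3 CCAAT on either strand, KIF20B and TOP2A 2 each, and CCNA2 1. PTTG1 held 3, of which 2 overlap in CCAATTGG, and CDK1 and KIF11 held 1 each, with TTTGAA in KIF11 on the reverse strand. Over the 250 bases searched TOP2A held 4 CCAAT. CDK1 and TOP2A also held TTTGAA there, outside the printed bases. Of the other 2 members of low rho, whose windows are not printed, CDC25B held none in 250 bases and MAD2L1 held 1, outside the 150 bases nearest the start. NUSAP1, of the highest rho, is not printed either, since all 150 bases of its window lay in annotated exons. It held 3 CCAAT in 250 bases. These letters are a description of the sequence and were not tied to a factor by any measurement here.

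Levels were then compared between protocols by pooling the reads of the kept cells, with 1 CPM added before the log2 ratio. Genes with at least 1 pooled CPM in either protocol were counted as 2-fold higher or lower. Between G&T and Takara 5 of 40 members were at least 2-fold higher in G&T, beside 25.7% of 14658 genes, and 7 were at least 2-fold lower, beside 17%. Between G&T and NEB 9 were higher in G&T, beside 48.7% of 14795 genes, and 9 lower, beside 19.5%. Between Takara and NEB 12 were higher in Takara, beside 43.7% of 13532 genes, and 9 lower, beside 24.3%. The median log2 ratio of the members was -0.31, -0.05 and 0.08 in these pairs, beside 0.16, 0.92 and 0.56 over all genes counted. For G&T over NEB the sign of the median turned to 0.24 with the mean of CPM over cells in place of pooled reads. The 3 pairs share their cells.

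Several members differed by more than 10-fold between a pair of protocols. PLK1 (ENSG00000166851, chromosome 16, 23677656 to 23690367), Polo-like kinase 1, was pooled to 81.5 CPM for G&T cells, with an exact 95% counting interval of 75.8 to 87.4. For Takara cells it was 303 CPM (293 to 313), and for NEB cells 6.02 CPM (4.44 to 7.98). Its lowest, median and highest levels were 0, 34.2 and 265 CPM in G&T and 0, 103 and 1232 CPM in Takara. In NEB only D1 had reads, at 49.8 CPM, and the other 10 cells had none. AURKB (ENSG00000178999, chromosome 17, 8204733 to 8210600), the kinase of the chromosomal passenger complex, had pooled levels of 111, 213 and 11.2 CPM, with at most 260.1, 529 and 46.7 CPM in a cell. KIF2C (ENSG00000142945, chromosome 1, 44739818 to 44767767), which takes microtubules apart at the kinetochore, had 139, 114 and 11.3 CPM, with reads in 9, 8 and 3 cells. CDC20 (ENSG00000117399, chromosome 1, 43358981 to 43363203), an activator of the anaphase-promoting complex, had 59.05, 694 and 59.2 CPM. Its highest cell in G&T held 208 CPM, below the Takara median of 674 CPM, and the ranges overlapped, since 5 Takara cells (A1, B1, D1, E2 and G1) lay below 208 CPM.

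By pooled level, which in NEB leans on the highest cells, other members were lowest in Takara or highest in NEB. CENPF had pooled levels of 649 CPM in G&T cells, 176.5 CPM in Takara cells and 1044 CPM in NEB cells, KIF20B 229, 122 and 929 CPM, and MKI67 (ENSG00000148773, chromosome 10, 128096659 to 128126423) 411, 95.1 and 173 CPM. MKI67 ran from 0.857 CPM through 376 CPM to 1051 CPM in G&T, from 0 CPM through 85.5 CPM to 199 CPM in Takara, and from 0 CPM through 103 CPM to 605 CPM in NEB. CCNB1 (ENSG00000134057, chromosome 5, 69167135 to 69178245), cyclin B1, had 241, 986 and 1266 CPM, and DLGAP5 (ENSG00000126787, chromosome 14, 55148112 to 55191608), which steadies spindle fibres, 122, 163 and 584 CPM. DLGAP5 ran from 0 CPM through 127 CPM to 377 CPM in G&T, from 0 CPM through 124 CPM to 399 CPM in Takara, and from 0 CPM through 389 CPM to 1975 CPM in NEB. By median cell the order turned for some of them. CENPF was at 521 CPM in G&T against 300.1 CPM in NEB, KIF20B at 192 against 106 CPM, and CCNB1 at 805 CPM in Takara against 535 CPM in NEB. In each of these genes the ranges over cells overlapped between all 3 protocols.

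Across the members the ratios went with base composition, in a direction that differed between pairs, and with length where Takara was compared. The rho across the 40 genes between the ratio of Takara to NEB and the GC content of the longest annotated transcript was 0.66998, beside 0.568 across all genes counted and 0.586 across protein-coding genes. It was 0.466 beside 0.532 and 0.568 for G&T over NEB, and -0.492 beside -0.110 and -0.113 for G&T over Takara. CDC25B (59.1% GC), CDC20 (57.9%), PLK1 (57.1%) and AURKB (55.6%) had the highest GC contents, and KIF20B (34.3%) and CENPE (35.4%) the lowest. With exon length, rho was 0.595 for G&T over Takara, beside 0.107 across all genes and 0.282 across protein-coding genes. It was -0.465 for Takara over NEB, beside -0.0863 and -0.209, and -0.100 for G&T over NEB, beside -0.0146 and -0.0688. Genes are not independent replicates, and the part of composition or length in the ratios was not tested.

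**Figure D5:**
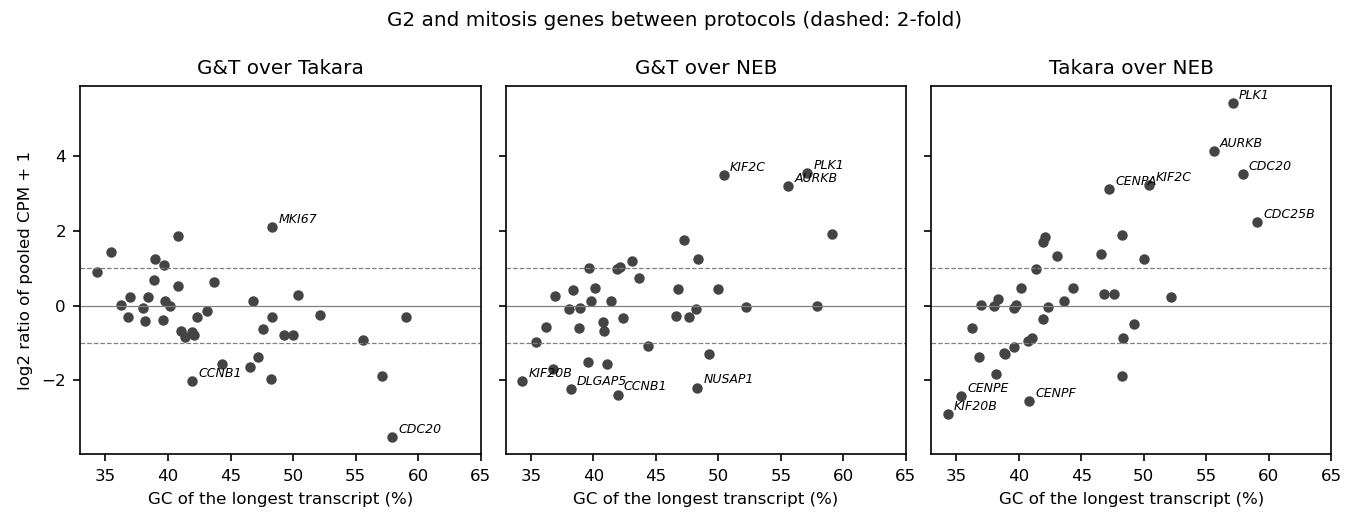
Log2 ratio of pooled CPM, with 1 CPM added, of each of the 40 genes for 3 pairs of protocols, against the GC content of its longest annotated transcript in percent. Points are genes, those at 4-fold or more are named, and dashed lines mark 2-fold. PLK1, AURKB, CDC20 and CDC25B stand at the upper right for Takara over NEB, and KIF20B and CENPE at the lower left.

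The order of the genes by level was partly shared. Across the 40 members the rho of pooled CPM per kb was 0.757 between G&T and Takara, 0.781 between G&T and NEB and 0.6 between Takara and NEB. For CV, over members that passed in both protocols of a pair, it was 0.473, 0.489 and 0.668. For the rho with the rest of the module it was 0.166, -0.0897 and 0.223, so which member followed the module most closely in 1 protocol said little about the others.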

How the data were processed

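Per the labels and the methods, the authors used Trim Galore and then STAR on GRCh38, and the deposited values are STAR's raw counts of reads per gene, not normalized. The annotation release and strand setting are not given in the sources used here. The tables held 60279 genes, 92 ERCC rows and 4 rows of unassigned reads, which took 17.7% to 40.6% of reads and were left out of library sizes. Members and gene lists were chosen with earlier results of these data known. CPM, CV, Spearman rho and pooled log2 ratios were computed in Python 3.11.15 (numpy 2.4.6, pandas 2.3.3, scipy 1.17.1), a lowess trend (fraction 0.3) in statsmodels 0.14.6 and TMM factors in edgeR 4.0.16. Scripts were tested on simulated data. Each cell is 1 of 1 culture, so no test was run and correlations carry no p. Genes were named by rule: in each role group the member highest per kb, the 5 members with the highest and the 5 with the lowest minimum rho over protocols, the 2 largest pooled ratios per pair and direction, and the 8 most similar non-members, of which 1 is not reported here. Others, the gene couples and the CDK1 and CCNB1 comparison were chosen after values were seen. GENCODE release 44 gave lengths and coordinates, and RefSeq the promoters. Alternatives changed the scaling, filter, correlation, score and cells. SS3 cells were not analysed here.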

Additional observations from a re-analysis of the deposited data

Results flagged for a closer look

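The 7 cells left out for library quality still held reads on the G2 and mitosis genes, and these values entered no comparison of the report, only the alternative with all deposited cells. Their summed level was 663 CPM in G&T C2 (468 reads) and 1388 CPM in G&T F1 (810 reads). It was 1044 CPM in Takara C2 and 501 CPM in Takara F1, which rest on 16 and 4 reads. In NEB it was 739 CPM in B2 (333 reads) and 7741 CPM in F1, which rests on 11 reads. NEB F2 held 42944 CPM from 23616 reads, with reads on 36 of the 40 genes, and lay between the 2 highest kept NEB cells, D1 (37777 CPM) and E1 (46711 CPM).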

How the results depend on the processing

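Every count over the members stayed within 1.5 times its value under the alternative settings. Without any 1 cell, the counts for spread and for rho did so too. Detection counts, 2-fold counts and pooled ratios were not recomputed without single cells. Over the settings, the median rho of the members ranged from 0.738 to 0.891 in G&T, 0.921 to 0.945 in Takara and 0.769 to 0.818 in NEB. The median summed level ranged from 4782 to 7837 CPM, 5556 to 9441 CPM and 6369 to 7197 CPM, the first 2 lowest with all deposited cells. The median log2 ratio of G&T over NEB ranged from -0.31 with all deposited cells to 0.24 with the mean of CPM over cells, so its sign is not settled, and that of G&T over Takara from -0.47 to -0.12. For single genes, a value was said to move past 1 SD of the members' rho or of the cells' log2 levels, a wide margin. Of the values for named genes, 47 of 1037 moved under other settings and 29 of 660 without a cell, and 0 reversed. With TMM factors, 34 G&T members had rho of 0.6 or more, BIRC5 fell to 0.245 and CCNB1 to 0.491. Given library size, an alternative added after seeing the data, rho in G&T was 0.366 for CKS2, 0.556 for CDC20 and 0.509 for DLGAP5. With Pearson's r, ECT2 in NEB had 0.364. Without 1 cell, 36 to 39 members were counted in G&T, 40 to 40 in Takara and 23 to 29 in NEB. The share of all genes was not computed with TMM factors or without 1 cell. No paired analysis was possible because equal well names mark different cells and no result comes from a test. At 11 cells a protocol, and with 0 reads allowing up to 4.80 CPM in a NEB cell, low members are known least well in NEB.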
